A study of Mus musculus with 18 samples.

Results

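The 39 genes described here encode the secreted Wnt ligands, their Frizzled receptors and the secreted proteins that hold Wnt signals back. They are every row of the deposited expression tables that carried a gene ID above 0 and a symbol made of Wnt, Fzd, Sfrp or Dkk followed by a number, or the symbol Frzb or Wif1. Each of the 39 symbols had 1 such row, out of 30975 symbols with a gene ID. The set holds 19 Wnt ligands, 10 Frizzled receptors (Fzd1 to Fzd10) and 10 antagonists, namely Dkk1, Dkk2, Dkk3, Dkk4, Sfrp1, Sfrp2, Sfrp4, Sfrp5, Frzb and Wif1. RNA-seq was carried out on 18 libraries from wild type male C57BL/6 mice (C57BL/6J in the extract protocol and C57BL/6NTac in the study), 16 weeks old on a diet high in fat (HFD) since 12 weeks before: 6 of inguinal white adipocytes (iWAT adipocytes), 6 of epididymal white adipocytes (eWAT adipocytes) and 6 of brown adipose tissue (BAT). The study sequenced them to look for receptors coupled to Gi proteins in fat. White adipocytes were the floating layer after collagenase digestion of the depot, washed but not sorted, whereas BAT was whole frozen tissue that also held vessels, nerves and the other cells of the depot. No transgene or lean control group enters these comparisons, which are all between tissues of mice on HFD. The treatment field of the labels gives regular chow for all 18 libraries, against the titles, the design text and the study, and HFD was taken as the diet.

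Wnt proteins are secreted glycoproteins that carry a lipid added by Porcn and are brought to the cell surface by Wls. They bind the extracellular cysteine-rich domain of Frizzled proteins, multi-pass membrane receptors that form a GPCR class of their own. Together with the co-receptor Lrp5 or Lrp6 this stabilizes beta-catenin, which acts on target genes through TCF and LEF factors, and with Ror or Ryk co-receptors it feeds polarity and calcium branches. Sfrp proteins and Frzb carry a Frizzled-like domain and bind Wnt proteins outside the cell, as Wif1 does, whereas Dkk1 binds Lrp5 and Lrp6. In fat, beta-catenin signaling is known to keep precursors from becoming adipocytes, Wnt10b being the classic inhibitory ligand, and Sfrp5 is known as a secreted adipocyte product that binds Wnt5a.

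The libraries held 26768529 to 30166441 reads on gene rows in iWAT, 24655056 to 37438994 in eWAT and 27402247 to 42518483 in BAT. Levels are given in RPKM, read counts divided by transcript length and library depth, and only these are compared between genes. Differences between tissues are log2 fold changes of read counts, first-named tissue over second, from edgeR's quasi-likelihood test with TMM scaling, and a gene was called at a Benjamini-Hochberg adjusted p under 0.05 over all genes tested. TMM sets the typical gene to no change. Without it, the median of all genes moved by 0.85 (iWAT over BAT) and 0.91 (eWAT over BAT) on the log2 scale, and by -0.080 between the white depots, so differences from BAT of less than about this size depend on the scaling. Adipocyte markers (Adipoq, Plin1, Cidec, Lep, Fabp4) summed to 11221 to 15701 RPKM in iWAT, 2511 to 7806 in eWAT and 5402 to 6631 in BAT. Brown adipocyte markers (Ucp1, Cidea, Dio2, Ppargc1a) summed to 9.15 to 12.3, 1.53 to 3.38 and 1979 to 2625 RPKM, highest in BAT as the label says. Macrophage markers (Cd68, Emr1, Csf1r, Cd14, Lyz2) reached 2518 to 4051 RPKM in eWAT, against 444 to 876 in iWAT and 24.2 to 47.9 in BAT, with all 5 higher in eWAT than in iWAT by the test. The eWAT samples of mice 1 and 3 stood apart, with the lowest adipocyte sums (3433 and 2511) and the highest macrophage sums (4051 and 3983). The iWAT samples of mice 1 and 5 were highest in endothelial (Cdh5, Pecam1, Kdr, Tie1, Tek) and mural (Acta2, Myh11, Rgs5, Notch3, Cspg4) markers, and the BAT sample of mouse 2 was lowest in skeletal muscle markers (Acta1, Myh4, Myh1, Ckm, Actn3), at 1.30 against 14.6 to 99.4 RPKM in the others.

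Most of the 39 genes stayed below a mean of 1 RPKM in all 3 tissues. A mean of at least 1 RPKM was reached by 9 of them in iWAT, by 7 in eWAT and by 6 in BAT, and by 10 in some tissue. Only Wnt5a, Fzd1, Fzd4 and Fzd7 did so in all 3 tissues. At the other end, 11 genes (Wnt1, Wnt3, Wnt3a, Wnt7a, Wnt7b, Wnt8a, Wnt9b, Wnt10a, Fzd10, Dkk1 and Dkk4) had at most 3 reads in each of the 18 libraries, which is taken here as the floor of detection. Wnt7a had no read in any library. For these 11 genes 3 reads correspond to at most 0.0279 (Wnt9b) to 0.0995 RPKM (Dkk4), depending on transcript length and depth, and for each of them expression below its own limit was not detectable. This floor covers counting error only. The eWAT sample of mouse 16 held 13 reads on 8 of the 11 genes at the floor, against 0 to 7 reads in the other 17 libraries. It was also the library with the highest epididymal epithelium markers (Lcn5, Lcn8, Defb20, Crisp1, Adam7), 16.9 RPKM against 0.167 to 8.49 in the other eWAT samples and 0 in 11 of the 12 iWAT and BAT samples, and the part of those cells in these reads was not tested. The remaining 18 genes lay between the floor and 1 RPKM.

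**Figure D1:**
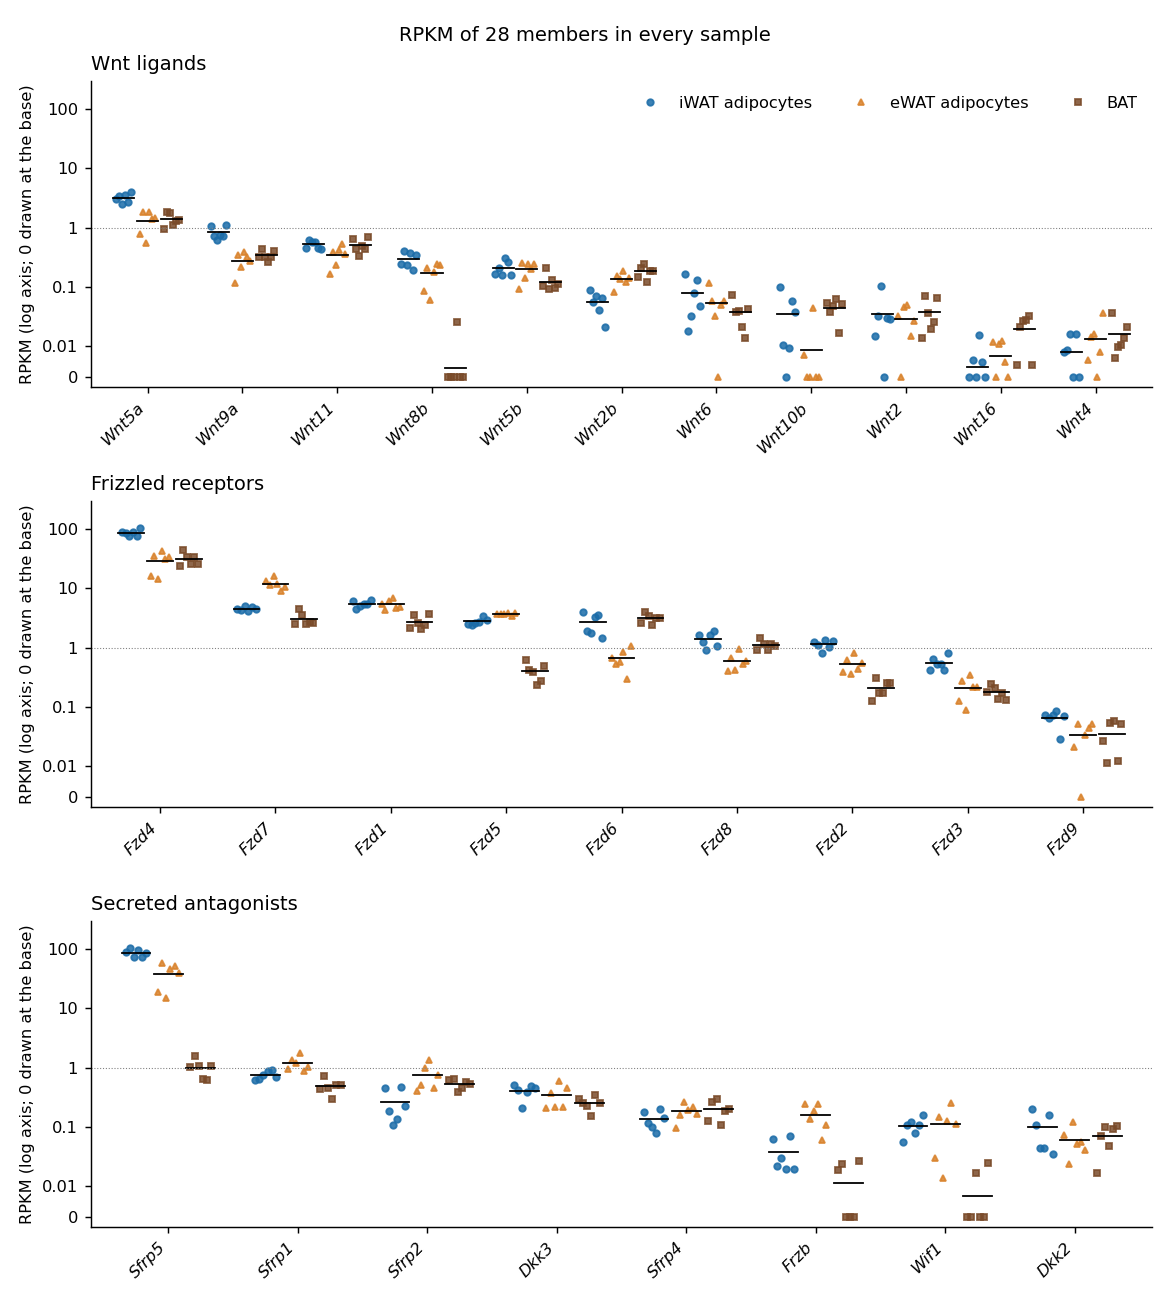
RPKM (log axis, 0 drawn at the base) of the 28 genes above the floor in some library, for 6 iWAT adipocyte, 6 eWAT adipocyte and 6 BAT samples, one point per sample and a line at the mean. Fzd4 and Sfrp5 sit far above the other members in white adipocytes, and Sfrp5 drops from 72.9 to 106 RPKM in iWAT to 0.609 to 1.57 in BAT.

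Among the ligands, Wnt5a, which mainly feeds the beta-catenin-independent branches, was the only one to reach 1 RPKM. It ranged over 2.55 to 3.98 RPKM (median 3.26) in iWAT, 0.541 to 1.87 RPKM (median 1.43) in eWAT and 0.936 to 1.85 RPKM (median 1.32) in BAT. Its share of the summed ligand RPKM was 60.3 ± 2.97% in iWAT (mean ± SD, n = 6 here and below), 50.0 ± 6.94% in eWAT and 50.7 ± 7.14% in BAT. Wnt5a thus made up at least 37.2% of the ligand RNA, per length, in each library. Wnt9a followed in iWAT at 0.623 to 1.09 RPKM (median 0.745), while Wnt11, another ligand of the beta-catenin-independent branches, was second in eWAT, at 0.167 to 0.529 RPKM, and in BAT, at 0.327 to 0.694 RPKM. Wnt8b, Wnt5b and Wnt2b had means of 0.0563 to 0.298 RPKM in the white depots. Wnt10b, the inhibitor of adipocyte formation, had 0 to 10 reads per library. Wnt2, Wnt4, Wnt6 and Wnt16 were as scarce, with at most 10 reads in any library. All 19 ligands together summed to 5.31 ± 0.663 RPKM in iWAT, 2.57 ± 0.867 in eWAT and 2.70 ± 0.420 in BAT.

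The receptors were far more abundant than the ligands. Fzd4 (chr7:96552876-96558620, plus strand, mm9), the receptor for several Wnt ligands and for norrin, accounted for 82.3 ± 2.16% of the summed Frizzled RPKM in iWAT, 53.8 ± 12.9% in eWAT and 74.0 ± 2.74% in BAT. It ranged over 77.1 to 103 RPKM (median 87.7) in iWAT, 14.6 to 42.3 RPKM (median 32.6) in eWAT and 23.5 to 44.3 RPKM (median 29.8) in BAT. By mean RPKM it ranked 520 of 52093 symbols in iWAT, 1738 in eWAT and 993 in BAT. The second receptor differed between tissues: Fzd1 in iWAT (5.47 ± 0.683 RPKM), Fzd7 in eWAT (12.1 ± 2.50) and Fzd6 in BAT (3.12 ± 0.563), the last of these within the spread of Fzd7 there (3.07 ± 0.811). In iWAT the order then ran through Fzd7 (4.56 ± 0.379), Fzd5 (2.77 ± 0.393), Fzd6 (2.69 ± 1.09), Fzd8 (1.41 ± 0.400) and Fzd2 (1.14 ± 0.194), with Fzd5 and Fzd6 closer than their spread. In eWAT it ran through Fzd1 (5.40 ± 0.984) and Fzd5 (3.72 ± 0.160) to Fzd6, Fzd8 and Fzd2 (0.529 to 0.657). Fzd3, a receptor of the polarity branch, had 0.177 to 0.557 RPKM by tissue mean, and Fzd9 had 0 to 6 reads per library.

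Sfrp5 (chr19:42272461-42276742, minus strand, mm9) was nearly the whole of the antagonist pool in white adipocytes. It ranged over 72.9 to 106 RPKM (median 88.4) in iWAT, 15.1 to 58.3 RPKM (median 42.9) in eWAT and 0.609 to 1.57 RPKM (median 1.04) in BAT, and the 3 tissues did not overlap. Its share of the summed antagonist RPKM was 97.9 ± 0.606% in iWAT, 91.8 ± 4.66% in eWAT and 38.3 ± 6.17% in BAT. Within a sample Sfrp5 and Fzd4 stood at nearly the same level in iWAT, with a ratio of RPKM of 0.845 to 1.24, against 1.03 to 1.67 in eWAT and 0.0180 to 0.0427 in BAT. Sfrp5 exceeded Wnt5a, the ligand it is known to bind, 21.8- to 37.7-fold in the 12 white samples, whereas the ratio in BAT was 0.477 to 1.07. Sfrp1 was second in the white depots, at 0.756 ± 0.120 RPKM in iWAT and 1.19 ± 0.323 in eWAT, and close to Sfrp2 in BAT (0.299 to 0.723 and 0.380 to 0.638 RPKM). Sfrp2 and Dkk3 had tissue means of 0.254 to 0.739 RPKM, and Sfrp4, Dkk2, Frzb and Wif1 had tissue means of at most 0.196 RPKM (Sfrp4 in BAT). In BAT, Frzb and Wif1 were at the floor.

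The upstream sequences of Sfrp5 and Fzd4, the most abundant members of their roles, and of Fzd7, which differed between the white depots in the opposite direction, are shown because their differences between tissues are the ones described most closely below. They are the 250 bases before the RefSeq start in GRCm38.p6, another build than the mm9 of the tables, read 5′ to 3′ on the gene's strand; RefSeq sequences were at hand for 27 of the 39 members. Capitals mark matches on either strand to GGGCGG, the GC box bound by Sp factors, to CCAAT, the box bound by NF-Y, to TATAAA, where the basal machinery binds, and to CTTTGA, the core bound by TCF and LEF factors. Matches to the first of these overlap in places.
Sfrp5 promoter (chr19:42202253-42202502, minus strand): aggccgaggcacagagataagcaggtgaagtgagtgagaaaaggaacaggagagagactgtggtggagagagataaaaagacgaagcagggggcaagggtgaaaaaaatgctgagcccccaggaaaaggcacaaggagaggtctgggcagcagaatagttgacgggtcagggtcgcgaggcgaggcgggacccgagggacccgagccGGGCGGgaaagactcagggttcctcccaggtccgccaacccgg
Fzd4 promoter (chr7:89404116-89404365, plus strand): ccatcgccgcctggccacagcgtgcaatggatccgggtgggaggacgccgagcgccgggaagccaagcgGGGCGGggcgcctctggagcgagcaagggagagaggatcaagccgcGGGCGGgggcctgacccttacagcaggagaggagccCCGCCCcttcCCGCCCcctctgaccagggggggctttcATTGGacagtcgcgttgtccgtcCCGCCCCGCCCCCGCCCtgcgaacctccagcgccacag
Fzd7 promoter (chr1:59481897-59482146, plus strand): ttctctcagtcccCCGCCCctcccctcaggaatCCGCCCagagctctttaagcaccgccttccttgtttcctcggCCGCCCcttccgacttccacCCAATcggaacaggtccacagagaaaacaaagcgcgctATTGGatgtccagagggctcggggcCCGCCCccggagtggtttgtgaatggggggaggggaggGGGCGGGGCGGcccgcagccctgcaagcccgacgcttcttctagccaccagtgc
The Sfrp5 window held 1 GC box and no CCAAT, the Fzd4 window 7 GC boxes and 1 CCAAT, and the Fzd7 window 6 GC boxes and 2 CCAAT. None of these windows held the TATA box or the TCF and LEF core in these letters. Their GC contents were 59.6%, 72.8% and 65.2%, against a median of 52.4% over all 32851 windows of this length. Of these windows, 32.7% held a GC box, 33.8% a CCAAT, 12.4% a TATA box and 13.8% the TCF and LEF core, and among the 27 members 21, 10, 5 and 5 did.

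The white depots differed in most of the members that could be tested. Of 20 tested between iWAT and eWAT adipocytes, 16 were called, 10 higher in iWAT and 6 higher in eWAT. Over all 19623 genes tested, 68.6% were called, 34.1% higher in iWAT and 34.5% higher in eWAT. With a log2 fold change of at least 1 as well, 12 of the 20 were called, 8 higher in iWAT and 4 higher in eWAT, against 24.9%, 13.0% and 11.9% of all genes. Of these 4, Frzb and Wnt2b had a mean count under 10 in iWAT. They passed the filter on a mean count of 10 over both depots through eWAT, which favours that direction. The median absolute log2 fold change was 1.22 over the 20 members and 0.47 over all genes. RPKM values of the 6 iWAT and 6 eWAT samples did not overlap for 7 of the 20, 6 higher in iWAT and Fzd7 higher in eWAT, against 44.0% of all genes (21.2% and 22.8%). In bulk samples such as these, fewer cells of a type and less RNA per cell cannot be told apart.

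**Figure D2:**
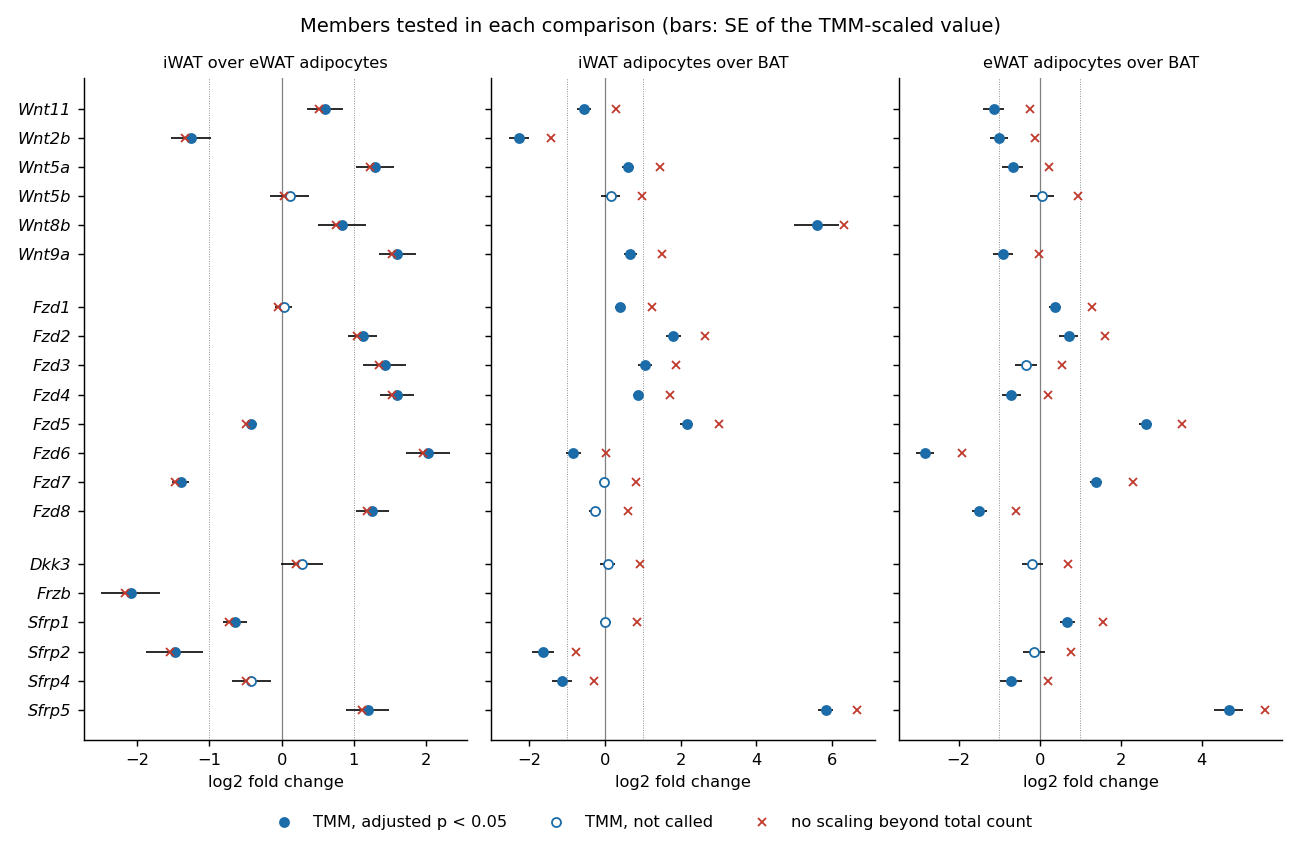
log2 fold changes of the members tested in each comparison, with SE bars, filled where called after TMM scaling, and crosses for the fit with no scaling beyond the total count; dotted lines mark a log2 fold change of 1 in size. Between the white depots both scalings give nearly the same values, with a change of sign for Fzd1 near 0, whereas against BAT the crosses lie to the right by the shift of the median gene, which turns the direction of Fzd6, Fzd7, Fzd8 and Wnt11 (iWAT over BAT) and of Dkk3, Fzd3, Fzd4, Sfrp2, Sfrp4 and Wnt5a (eWAT over BAT); the fitted value of Wnt8b rests on a BAT group at the floor.

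Of 6 ligands tested, 4 were called higher in iWAT and 1 higher in eWAT, against 34.1% and 34.5% of all genes. Wnt5a ran at 2.55 to 3.98 (median 3.26) RPKM in iWAT and 0.541 to 1.87 (median 1.43) in eWAT, without overlap (log2 fold change 1.30, SE 0.27, adjusted p = 7.43e-04). The lowest eWAT values came from mice 3 and 1 (0.541 and 0.794 RPKM). Wnt9a, a ligand studied mainly in joint formation, also separated the depots completely, with 0.623 to 1.09 RPKM in iWAT and 0.117 to 0.385 in eWAT (log2 fold change 1.60, SE 0.25, adjusted p = 9.66e-05). Wnt11 (0.60, adjusted p = 0.0420) and Wnt8b (0.83, adjusted p = 0.0375) were higher in iWAT by less than 1 on the log2 scale and their samples overlapped. Both lost their calls without the eWAT samples of mice 1 and 3, at log2 fold changes of 0.30, adjusted p = 0.162, and 0.45, adjusted p = 0.145. Wnt11 also lost its call without TMM scaling (0.52, adjusted p = 0.0601). Wnt2b was the ligand that was higher in eWAT, with 3 to 12 reads per iWAT library and 16 to 24 per eWAT library (log2 fold change -1.26, SE 0.28, adjusted p = 0.00142). It passed the filter through its eWAT reads (121 over all eWAT libraries and 47 in iWAT), which favours a call in that direction. Mesothelial markers (Msln, Upk3b, Lrrn4, Krt19, Wt1, Upk1b), of the layer that lines the epididymal depot, were also called higher in eWAT for 4 of the 5 tested. These 4 (Msln, Upk3b, Wt1 and Upk1b) had 1, 8, 1 and 2 reads over all iWAT libraries together. They passed the filter only through eWAT, so the direction of their calls was given in advance. Their sum was 2.53 to 5.73 RPKM in eWAT and 1.97 to 2.70 in iWAT. Of this sum, Lrrn4 alone had means of 2.31 RPKM in iWAT, 1.99 in eWAT and 8.30 in BAT. Wnt2b had its highest mean in BAT (0.182 RPKM, against 0.137 in eWAT), where Wt1 and Upk1b had no read and Msln and Upk3b were at the floor. The part of mesothelial cells was not tested. Wnt5b had a log2 fold change of 0.11 and was not called.

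Among the receptors, Fzd4 was 3.02-fold higher in iWAT (log2 fold change 1.60, SE 0.24, adjusted p = 7.18e-05), and its lowest iWAT sample (77.1 RPKM) lay above its highest eWAT sample (42.3 RPKM). The 2 lowest eWAT values were again those of mice 3 and 1 (14.6 and 16.1 RPKM), and without them the log2 fold change was 1.28, adjusted p = 3.22e-06. Fzd6, a receptor of the polarity branch, showed the largest difference of the receptors, with 1.46 to 4.02 (median 2.62) RPKM in iWAT and 0.293 to 1.06 (median 0.612) in eWAT (log2 fold change 2.03, SE 0.30, adjusted p = 6.48e-05). Its iWAT values were uneven, at 4.02, 3.62 and 3.32 RPKM in mice 1, 5 and 4 and 1.46 to 1.92 in the other three. Mice 1, 5 and 4 also had the highest iWAT sums of endothelial markers (262, 307 and 196 RPKM, against 107 to 148), and all 5 endothelial markers were higher in iWAT than in eWAT, where they summed to 36.5 to 78.1 RPKM. The part of endothelial RNA in the Fzd6 difference was not tested beyond leaving out mice 1 and 5 of iWAT, which gave 1.75, adjusted p = 4.36e-04. Fzd8 followed a like pattern within iWAT, highest in mice 5, 4 and 1 (1.66 to 1.94 RPKM), and was higher in iWAT (0.916 to 1.94 against 0.410 to 0.956 RPKM; log2 fold change 1.25, SE 0.23, adjusted p = 2.94e-04). Fzd2 (0.816 to 1.33 against 0.352 to 0.821 RPKM; 1.12, adjusted p = 2.92e-04) and Fzd3 (0.414 to 0.811 against 0.0893 to 0.344; 1.42, adjusted p = 7.87e-04) were higher in iWAT too.

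Fzd7 and Fzd5 ran the other way. Fzd7 (chr1:59538991-59543799, plus strand, mm9), a receptor prominent in stem and progenitor cells, had 4.08 to 5.12 (median 4.45) RPKM in iWAT and 9.15 to 16.3 (median 11.6) in eWAT, with no overlap and the smallest adjusted p of the members in this comparison (log2 fold change -1.40, SE 0.12, adjusted p = 6.02e-07). Its highest eWAT values were those of mice 3 and 1 (16.3 and 13.4 RPKM), the libraries lowest in adipocyte and highest in macrophage markers, and the log2 fold change without them was -1.24, adjusted p = 6.55e-07. Fzd5 differed less but was even among mice, at 2.41 to 3.48 RPKM in iWAT and 3.47 to 3.90 in eWAT (log2 fold change -0.42, SE 0.078, adjusted p = 3.78e-04). Fzd1 had a log2 fold change of 0.027 (adjusted p = 0.852), and its sign turned without TMM scaling (-0.052).

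The antagonists were split. Sfrp5 was higher in iWAT (log2 fold change 1.19, SE 0.29, adjusted p = 0.00286), with the lowest eWAT values in mice 3 and 1 (15.1 and 18.9 RPKM) and 39.0 to 58.3 in the other four. Without those mice its log2 fold change was 0.82, adjusted p = 3.83e-04. Frzb, Sfrp2 and Sfrp1 were higher in eWAT. Frzb was scarce, with 2 to 7 reads per iWAT library and 6 to 33 per eWAT library (log2 fold change -2.09, SE 0.41, adjusted p = 5.20e-04). It passed the filter through its eWAT reads (105 over all eWAT libraries and 22 in iWAT), which favours a call in that direction. Sfrp2 had 0.107 to 0.461 (median 0.205) RPKM in iWAT and 0.395 to 1.33 (median 0.627) in eWAT (log2 fold change -1.48, SE 0.40, adjusted p = 0.00464), and only the iWAT samples of mice 1 and 5 (0.455 and 0.461 RPKM) reached the eWAT range. The same samples had the highest sums of progenitor and fibroblast markers (Pdgfra, Dcn, Col1a1, Pi16, Dpp4, Ly6a, Lum), 179 and 194 RPKM against 92.1 to 124 in the other iWAT samples and 81.7 to 115 in eWAT, and 2 of these 7 markers were called higher in iWAT and none in eWAT. Without these iWAT samples, the log2 fold changes of Frzb and Sfrp2 grew in size to -2.71 and -2.09. Sfrp1 differed by -0.65 (adjusted p = 0.00403), with overlapping samples. Dkk3 and Sfrp4 were not called, and Dkk2 and Wif1 were too scarce to be tested.

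Both white depots were spread over 2 sequencing lanes, which allows the comparison within a lane, with 2 iWAT and 4 eWAT samples in one lane and 4 and 2 in the other. The log2 fold changes in the first and second lane were 1.44 and 1.88 for Fzd4, 2.39 and 1.61 for Fzd6, -1.33 and -1.38 for Fzd7, and 1.41 and 2.13 for Wnt9a, all called in both. Sfrp5 (0.92, adjusted p = 0.149, and 1.69, adjusted p = 0.00472) and Wnt5a (0.99, adjusted p = 0.103, and 1.65, adjusted p = 0.00319) kept their direction in both lanes and were called in the second only. The first lane held the eWAT samples of mice 2, 3, 4 and 5 and the second those of mice 1 and 16.

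Several of these differences moved with the adipocyte marker sum, which was itself 13972 RPKM by median in iWAT and 5537 in eWAT. Per 1000 RPKM of adipocyte markers, Sfrp5 came to 5.54 to 7.06 RPKM in iWAT and 5.51 to 8.83 in eWAT, so that the depots overlapped. Fzd4 came to 5.69 to 6.97 and 4.58 to 6.59, and Wnt5a to 0.193 to 0.254 and 0.215 to 0.285. Fzd2, Fzd3, Fzd6, Fzd8, Wnt8b, Wnt9a and Dkk3 overlapped on this scale as well. The other 10 members tested were higher in every eWAT sample than in any iWAT sample on this scale, namely Fzd1, Fzd5, Fzd7, Wnt2b, Wnt5b, Wnt11, Sfrp1, Sfrp2, Sfrp4 and Frzb, and no member was higher in every iWAT sample. For Fzd7 the values were 0.276 to 0.436 in iWAT and 1.47 to 6.47 in eWAT. This ratio is a description with no test, since the markers were themselves higher in iWAT. The marker sum was mostly Fabp4 (means of 10486.5 RPKM in iWAT and 4050 in eWAT).

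**Figure D3:**
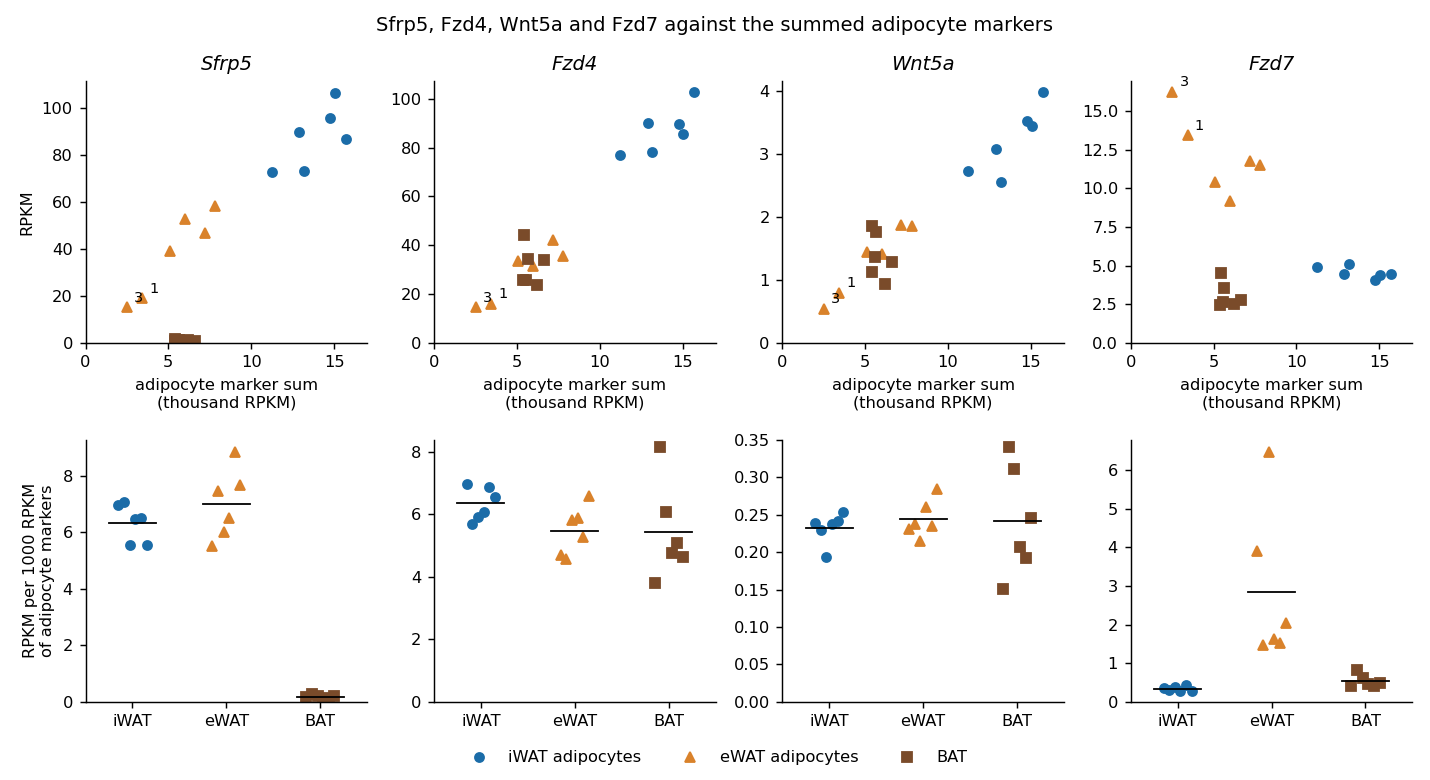
Upper row, RPKM of Sfrp5, Fzd4, Wnt5a and Fzd7 against the summed RPKM of 5 adipocyte markers, one point per sample, with eWAT mice 1 and 3 numbered; lower row, the same RPKM per 1000 RPKM of these markers, with a line at the mean of 6 samples. In white adipocytes Sfrp5, Fzd4 and Wnt5a climb with the marker sum and the depots overlap in the lower row, while Fzd7 stays higher in eWAT in both rows.

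Against BAT, the largest difference among the members was that of Sfrp5. Of 19 members tested between iWAT adipocytes and BAT, 14 were called, 9 higher in iWAT and 5 higher in BAT, while 75.3% of all 19745 genes were called, 38.1% and 37.2% in the 2 directions. Without TMM scaling the split was 14 and 2. The typical gene then also moved towards iWAT, by 0.85 on the log2 scale. Unscaled shares of all genes are not given here, so this split cannot show whether the members differ from other genes. With a log2 fold change of at least 1, 8 were called, 5 higher in iWAT and 3 higher in BAT (37.3%, 18.2% and 19.1% of all genes), and without the scaling none of these 8 changed sign but Sfrp4 lost its call. Of the 8, Wnt8b passed the filter on the mean count only through iWAT and Wnt2b only through BAT. RPKM did not overlap between the tissues for 10 members, 9 higher in iWAT and Wnt2b higher in BAT, against 65.3% of all genes (51.8% and 13.5%). These RPKM carry no TMM scaling. After it, Wnt5a and Fzd1 overlapped, and Sfrp2, Sfrp4 and Fzd6 were higher in BAT without overlap. The median log2 fold change was 0.15 over the members, the same with Wnt8b at its lower bound, and 0.014 over all genes. Isolated cells are set here against whole tissue, and the BAT libraries ran in other lanes than the white ones, so cell isolation, lane and tissue cannot be told apart in the comparisons with BAT.

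Sfrp5 was 57.4-fold higher in iWAT adipocytes than in BAT (log2 fold change 5.84, SE 0.19, adjusted p = 1.38e-12), or 25.5-fold higher in eWAT adipocytes (log2 fold change 4.67, SE 0.36, adjusted p = 8.07e-09). The BAT libraries had 28 to 115 Sfrp5 reads, against 4184 to 5654 in iWAT, and 854 to 3755 in eWAT. Without TMM scaling, which the fold changes of Sfrp5 carry, the adipocyte marker sum of BAT (5402 to 6631 RPKM) was below that of iWAT and within that of eWAT. Fabp4 made up most of this sum, with means of 10486.5 RPKM in iWAT, 4050 in eWAT and 5087 in BAT. Adipoq, Cidec and Lep had lower means in BAT (221, 249 and 64.8 RPKM) than in eWAT (387, 447 and 335). Plin1 had a higher mean in BAT (196 against 116 RPKM). After TMM scaling, Fabp4 had means of 9248 RPKM in iWAT, 3586 in eWAT and 6926 in BAT. By the test, 1 of the 5 markers was called higher in eWAT than in BAT and 2 higher in BAT. Against iWAT, 4 were called higher in iWAT and none in BAT. The part of the adipocyte marker sum in the Sfrp5 differences was not tested. Fzd5, a receptor for Wnt5a and other ligands, had the largest difference of the receptors, at 0.233 to 0.609 RPKM in BAT (log2 fold change 2.17, SE 0.17, adjusted p = 1.36e-08, against iWAT). Fzd2 (0.125 to 0.307 (median 0.209) RPKM in BAT; log2 fold change 1.81, SE 0.19, adjusted p = 3.78e-07) and Fzd3 (0.133 to 0.239 (median 0.174); log2 fold change 1.06, SE 0.19, adjusted p = 1.31e-04) were also more than 1 log2 unit lower in BAT, without overlap of the samples. Fzd4 (0.88, adjusted p = 2.27e-05) and Fzd1 (0.39, adjusted p = 0.0161) were higher in iWAT by less, as were Wnt9a (0.67, adjusted p = 0.00213) and Wnt5a (0.61, adjusted p = 0.00272). Wnt8b was at the floor in BAT, with 2 reads in mouse 16 and none in the other five, and was at least 4.37-fold higher in iWAT, set against 3 reads per BAT library after TMM scaling (20 to 40 reads per iWAT library).

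Wnt2b, Sfrp2 and Sfrp4, all secreted, were higher in BAT by both rules. Wnt2b had 0.121 to 0.245 RPKM in BAT against 0.0206 to 0.0869 in iWAT (log2 fold change -2.28, SE 0.26, adjusted p = 1.13e-06). It passed the filter through its BAT reads (161 over all BAT libraries and 47 in iWAT), which favours a call in that direction. Sfrp2 (0.380 to 0.638 (median 0.547) RPKM in BAT; log2 fold change -1.63, SE 0.29, adjusted p = 1.15e-04) and Sfrp4 (0.108 to 0.293 (median 0.192); log2 fold change -1.14, SE 0.27, adjusted p = 0.00121) overlapped with iWAT on the RPKM scale. RPKM of both no longer overlapped with iWAT after TMM scaling. Sfrp4 was not called without TMM scaling (-0.29, adjusted p = 0.355). Without the iWAT samples of mice 1 and 5 the log2 fold change of Sfrp2 grew in size to -2.25. Fzd6 (-0.83, adjusted p = 0.00178) and Wnt11 (-0.56, adjusted p = 0.0131) were called higher in BAT after TMM scaling, but without it their log2 fold changes were 0.035 and 0.29, of the opposite sign. The Wnt11 call was also lost with mouse number as a block (adjusted p = 0.0842). Fzd7, Fzd8, Dkk3, Sfrp1 and Wnt5b were not called.

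Between eWAT adipocytes and BAT, 14 of 18 members tested were called, 6 higher in eWAT and 8 higher in BAT, against 82.5% of all 20076 genes (41.1% and 41.4% in these directions). Without TMM scaling the split was 9 and 2. The typical gene then also moved towards eWAT, by 0.91 on the log2 scale, and unscaled shares of all genes are again not given. This split likewise cannot show whether the members differ from other genes. By both rules 7 were called, 3 higher in eWAT and 4 higher in BAT, against 49.0%, 23.7% and 25.3% of all genes. RPKM did not overlap for 7 members, 6 higher in eWAT and Fzd6 higher in BAT, against 68.4% of all genes (49.2% and 19.2%). After TMM scaling of the RPKM, Fzd1, Fzd2 and Sfrp1 overlapped, and Wnt2b, Wnt9a and Fzd8 were higher in BAT without overlap. The median absolute log2 fold change was 0.71 over the members and 0.97 over all genes. Besides Sfrp5, the genes higher in eWAT by both rules were Fzd5 (log2 fold change 2.62, SE 0.16, adjusted p = 6.51e-10) and Fzd7 (log2 fold change 1.39, SE 0.16, adjusted p = 8.27e-07), whose eWAT and BAT samples did not overlap. Frzb, at the floor in BAT, was at least 2.28-fold higher in eWAT, and Wnt8b at least 2.48-fold, both set against 3 reads per BAT library after TMM scaling.

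Fzd6 showed the largest difference in favour of BAT among the members. It had 2.44 to 4.01 (median 3.14) RPKM there and 0.293 to 1.06 (median 0.612) in eWAT, with no overlap, and a log2 fold change of -2.83 with TMM scaling (SE 0.22, adjusted p = 9.15e-09) or -1.92 without it. Fzd8 was higher in BAT as well (0.918 to 1.44 against 0.410 to 0.956 RPKM; log2 fold change -1.49, SE 0.18, adjusted p = 2.15e-06), also without the scaling (-0.58). Endothelial markers, which moved with Fzd6 and Fzd8 within iWAT, summed to 75.7 to 109.8 RPKM in BAT and 36.5 to 78.1 in eWAT. All 5 were called higher in BAT than in eWAT after TMM scaling. Mural markers summed to 94.9 to 138 RPKM in BAT and 23.6 to 57.4 in eWAT. Between iWAT and BAT, endothelial markers ran the other way from Fzd6. They summed to 107 to 307 RPKM in iWAT, and 2 of the 5 were called higher in iWAT and none in BAT. Fzd6 was called higher in BAT there (log2 fold change -0.83 with TMM scaling). The part of endothelial and mural cells was not tested. Wnt11 (-1.14, adjusted p = 8.17e-04) and Wnt2b (-1.004, adjusted p = 4.43e-04) were called higher in BAT with TMM scaling and not without it (-0.23 and -0.11). The same held for Wnt9a (-0.90, adjusted p = 0.00263, and -0.0091 unscaled). RPKM of these 3 ligands overlapped between eWAT and BAT, and after TMM scaling only that of Wnt11 did.

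The smaller differences between eWAT and BAT turned with the scaling. Fzd4 (-0.70 with and 0.21 without TMM), Wnt5a (-0.66 and 0.24) and Sfrp4 (-0.70 and 0.20) were called higher in BAT with it and changed sign without it. Their RPKM overlapped: Fzd4 had 14.6 to 42.3 in eWAT and 23.5 to 44.3 in BAT, and Wnt5a 0.541 to 1.87 and 0.936 to 1.85. Wnt5a was no longer called without the eWAT samples of mice 1 and 3 (log2 fold change -0.33, adjusted p = 0.0909), and the log2 fold change of Fzd4 was then -0.37, adjusted p = 0.0323. Fzd2 (0.72, adjusted p = 0.0132), Sfrp1 (0.69, adjusted p = 0.00291) and Fzd1 (0.39, adjusted p = 0.0264) were higher in eWAT, the last of these not with mouse number as a block (adjusted p = 0.110). With that block Sfrp2 (log2 fold change -0.63, adjusted p = 0.0460) and Fzd3 (-0.50, adjusted p = 0.0447), otherwise not called, were called higher in BAT, but without TMM scaling (and no block) their log2 fold changes were 0.77 and 0.55. Among the BAT samples, mouse 2 had the highest RPKM for 12 of the 18 members above the floor in every BAT library and the lowest muscle markers. Mouse 16 had the lowest RPKM for 9 of these 18. Of the BAT libraries, mouse 2 also had the highest TMM factor (0.725, all 18 samples scaled together) and mouse 16 the lowest (0.536). RPKM carries no such factor, and its part was not tested. Leaving out mouse 2 ended the calls of Wnt5a (-0.60, adjusted p = 0.0667) and Sfrp4 (-0.63, adjusted p = 0.0604).

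Other genes of the pathway were taken from 8 lists that together name 74 genes, of which 73 were found. Between the white depots, 57 were tested, 31 higher in iWAT and 11 higher in eWAT, with a median log2 fold change of 0.42 against 0.0014 for all genes. Of all genes, 34.1% and 34.5% were called in these directions. Between iWAT and BAT, 59 were tested, 31 higher in iWAT and 14 higher in BAT, against 38.1% and 37.2% of all genes. Between eWAT and BAT, 61 were tested, 24 higher in eWAT and 28 higher in BAT, against 41.1% and 41.4%. These shares also stand behind the counts of each list below. Without TMM scaling the splits were 45 to 9 for iWAT and 36 to 14 for eWAT. The shares above carry TMM scaling and do not stand behind these splits. Since the typical gene then also moved towards the white depots, they cannot show whether the pathway genes differ from other genes. Genes named from here on passed both rules in the comparison given, and none of those differences from BAT changed sign without the scaling, though Porcn and Tcf7 (higher in BAT than in eWAT) were not called then.

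Genes far higher in BAT than in white adipocytes included an R-spondin and an R-spondin receptor. R-spondins strengthen Wnt signals by binding Lgr receptors and removing the E3 ligases Znrf3 and Rnf43, which otherwise clear Frizzled proteins from the membrane. Rspo4 ran at 2.86 to 10.1 (median 4.60) RPKM in BAT, with 0 reads in all 6 iWAT samples and 0 to 6 reads in eWAT, and was at least 171-fold higher than in iWAT when set against 3 reads per library after TMM scaling. All Rspo4 reads in eWAT came from mice 1 and 3. The Rspo4 row overlaps that of Fam110a. Lgr6 ran at 7.07 to 27.7 (median 15.5) RPKM in BAT and had 0 to 4 reads per iWAT library and 0 to 6 per eWAT library (log2 fold changes -11.22, adjusted p = 3.22e-12, and -11.69, adjusted p = 5.79e-12). Fitted on so few reads in white adipocytes, these values depend on the prior count. Lgr4, the related receptor, was instead higher in iWAT than in BAT (5.49 to 7.32 against 1.33 to 1.75 RPKM; log2 fold change 1.42, SE 0.094, adjusted p = 1.71e-09). Znrf3 was higher in BAT than in eWAT (0.891 to 1.55 against 0.560 to 0.802 RPKM; log2 fold change -1.34, SE 0.14, adjusted p = 2.02e-07). Of the 9 genes of this list, 4 were tested between iWAT and BAT (1 higher in iWAT, 3 higher in BAT) and 5 between eWAT and BAT (1 and 3). Rspo4 and Lgr6 passed the filter on the mean count only through BAT, so their direction in these counts was given in advance.

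**Figure D4:**
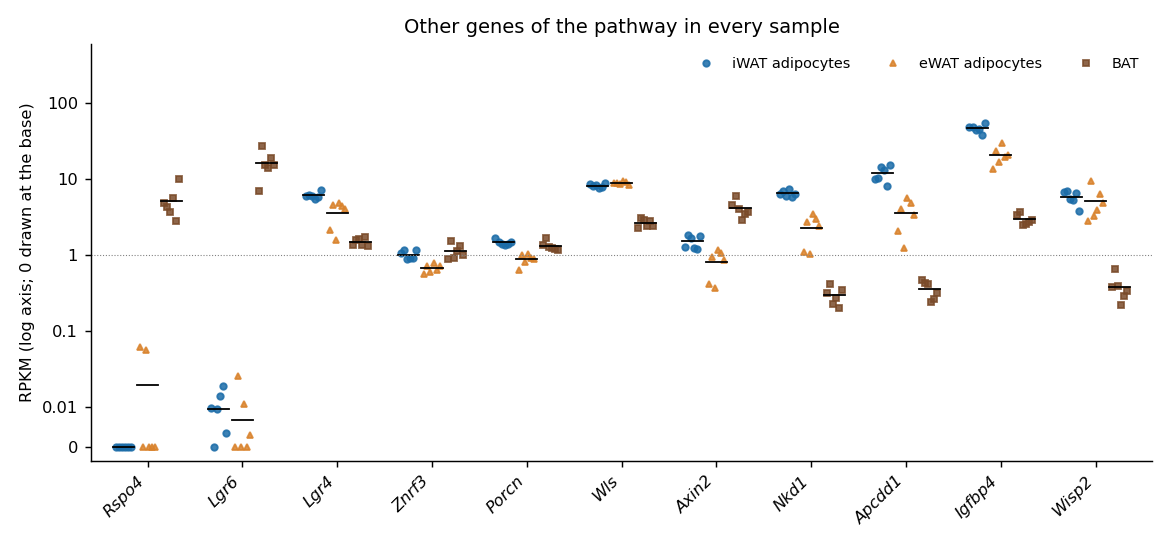
RPKM (log axis, 0 drawn at the base) of 11 other genes of the pathway in each of the 18 samples, with a line at the mean of each tissue. Rspo4 (2.86 to 10.1 RPKM) and Lgr6 (7.07 to 27.7 RPKM) are seen almost only in BAT, Axin2 is highest in BAT, and Nkd1, Apcdd1, Igfbp4 and Wisp2 are highest in the white depots.

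The beta-catenin target genes did not move as one. Of 15 listed, 8 were tested between the white depots (4 higher in iWAT, 2 higher in eWAT), 8 between iWAT and BAT (3 and 3) and 9 between eWAT and BAT (5 and 4). Axin2, the most widely used target and a negative regulator in the destruction complex, had 2.91 to 5.98 RPKM in BAT, 1.23 to 1.87 in iWAT and 0.367 to 1.18 in eWAT, and was higher in BAT than in iWAT (log2 fold change -2.03, SE 0.16, adjusted p = 1.28e-08) and eWAT (log2 fold change -2.94, SE 0.26, adjusted p = 3.65e-08). Nkd1, another inhibitor induced by the pathway, ran the opposite way, at 5.86 to 7.43 RPKM in iWAT, 1.04 to 3.47 in eWAT and 0.202 to 0.424 in BAT (log2 fold changes 1.51, adjusted p = 2.45e-04, iWAT over eWAT, and 3.82, adjusted p = 5.08e-12, iWAT over BAT). Apcdd1, a membrane-bound inhibitor and target, did the same (8.05 to 15.3, 1.26 to 5.69 and 0.241 to 0.475 RPKM; 1.75, adjusted p = 2.96e-04, and 4.46, adjusted p = 2.92e-11). Wisp2, known in adipose precursors, was higher in both white depots than in BAT (3.30, adjusted p = 5.70e-10 for iWAT, and 3.14, adjusted p = 2.10e-07 for eWAT). Wisp1 was scarce, and higher in eWAT than in iWAT (-1.32, adjusted p = 0.00770) and BAT (3.25, adjusted p = 8.34e-07), while Nkd2 was higher in BAT than in eWAT (-2.75, adjusted p = 2.62e-07) at 11 to 41 reads per BAT library.

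Co-receptors and ligand processing genes were expressed in all 3 tissues. Of 6 co-receptors tested, 4 were higher in iWAT than in eWAT and none lower (all genes 34.1% and 34.5%), with Lrp5 (4.91 to 8.42 against 2.13 to 3.65 RPKM; 1.21, adjusted p = 1.55e-05) and Ryk (10.2 to 12.1 against 3.46 to 6.94; 1.002, adjusted p = 1.66e-04) past both rules. Ryk was also higher in BAT than in eWAT (-1.29, adjusted p = 1.89e-06), and Ror1, a Wnt5a receptor, higher in eWAT than in BAT (1.08, adjusted p = 1.75e-04). Wls had 7.69 to 8.96 RPKM in iWAT and 8.53 to 9.42 in eWAT, and both were higher than BAT (1.03, adjusted p = 2.10e-08, and 1.156, adjusted p = 2.67e-09). Porcn was higher in BAT than in eWAT (-1.17, adjusted p = 7.65e-07). Among 7 further antagonists, 3 could be tested, and Igfbp4, which binds insulin-like growth factors and is also known to block Wnt signals at Frizzled and Lrp6, was higher in iWAT (37.9 to 54.5 RPKM) than in eWAT (13.6 to 29.6; 1.18, adjusted p = 4.50e-05) and in both white depots than in BAT (2.48 to 3.67; 3.38, adjusted p = 2.04e-12, and 2.22, adjusted p = 3.16e-09).

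Inside the cell, the 12 relay genes were all tested and none passed both rules between the white depots. Dvl3 was higher in BAT than in iWAT (-1.23, adjusted p = 1.24e-09) and eWAT (-1.23, adjusted p = 3.68e-09), and Tnks, which promotes Axin turnover, higher in eWAT than in BAT (1.10, adjusted p = 8.70e-10). The Dvl2 row showed 114 to 164 RPKM in BAT against 10.5 to 13.6 in iWAT and 7.25 to 9.73 in eWAT, but it overlaps the row of Acadvl, a mitochondrial fatty acid oxidation gene, so reads of the 2 genes may not be told apart and the value is uncertain. Of 11 nuclear effectors tested, 7 were higher in iWAT than in eWAT and none lower (all genes 34.1% and 34.5%): Tcf7l1 (1.53, adjusted p = 5.01e-06), Bcl9l (1.28, adjusted p = 7.24e-05), Ctnnbip1, an inhibitor of beta-catenin and TCF binding (1.06, adjusted p = 1.34e-06), and Pygo1 (1.004, adjusted p = 2.27e-04) led them. Pygo1 and the co-repressor Tle2 were higher in BAT than in iWAT (-1.63, adjusted p = 6.17e-09, and -1.84, adjusted p = 3.04e-06) and eWAT (-2.61, adjusted p = 1.82e-10, and -2.25, adjusted p = 3.38e-09). Tcf7 was higher in BAT than in eWAT (-1.09, adjusted p = 0.0420) on 0 to 19 reads per eWAT library, and the call was lost with mouse number as a block (adjusted p = 0.102).

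In the polarity and calcium branch, 9 of 16 genes were higher in iWAT and 6 higher in eWAT. Polarity genes led the first group, namely Daam2 (1.76, adjusted p = 1.16e-04), Prickle1 (1.63, adjusted p = 3.76e-06) and Vangl1 (1.48, adjusted p = 7.20e-07). Within iWAT, Daam2 (3.75 and 3.78 RPKM) and Prickle1 (2.48 and 2.50 RPKM) were highest in mice 1 and 5, the libraries highest in endothelial and mural markers, and the part of those cells was not tested. Nfatc2, a calcium-dependent transcription factor also active in leukocytes, was higher in eWAT (2.19 to 3.17 RPKM) than in iWAT (0.699 to 1.34; -1.53, adjusted p = 1.95e-06) and BAT (0.0735 to 0.130; 4.16, adjusted p = 5.03e-13), in the order of the macrophage sums, whose part was not tested. It was also higher in iWAT than in BAT (2.61, adjusted p = 2.12e-09). Camk2a was higher in eWAT than in BAT (2.25, adjusted p = 1.61e-06) and in iWAT than in BAT (1.08, adjusted p = 0.00260), whereas Camk2b was higher in BAT than in iWAT (-2.74, adjusted p = 3.56e-08) and eWAT (-2.23, adjusted p = 5.49e-08). Prickle1 was higher in BAT than in eWAT (-2.33, adjusted p = 2.12e-09).

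Counting could mix some members with neighbours, as the library kit does not mark strand. The rows of 15 members overlapped a row of another symbol, and those of the other 24, Fzd4, Fzd6, Fzd7 and Wnt9a among them, did not. By the GENCODE vM1 annotation of this build, exons were shared with another gene for 4 members, at 16.1% of exonic bases for Sfrp2, 10.0% for Wnt11, 4.58% for Wnt5a and 0.861% for Wnt7b. The Sfrp5 row overlaps that of Zfyve27 on the other strand, and no exonic base is shared.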

How the data were processed

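RNA-seq was carried out on 6 iWAT adipocyte, 6 eWAT adipocyte and 6 BAT samples. Libraries were made with a kit that does not mark strand. Per the labels and the submitters' processing notes, the authors trimmed reads with cutadapt 1.16 and aligned them to mm9 with HISAT2 2.1.0. The counting program, its annotation and its treatment of reads with several matches are not given in the sources used here. The authors deposited, for each transcript row, a raw read count and an RPKM value made from it. Reads of overlapping genes, and of genes with near-identical copies, can therefore not be told apart. All per-sample columns were used.

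One row per symbol was kept, that with the highest mean RPKM. Counts were tested with edgeR 4.0.16 in R 4.3.3 (TMM, glmQLFit and glmQLFTest, two-sided, no covariate) on the 12 samples compared, leaving out genes under a mean count of 10. A gene scarce in 1 tissue could pass this filter through the other tissue alone, which favours a call in that direction. P-values were adjusted by Benjamini-Hochberg over all genes tested, with a threshold of 0.05, and a second rule also asked for an absolute log2 fold change of at least 1. SE is the log2 fold change over the square root of F. P-values measure the spread between mice. The scripts were tested on simulated data. The members and lists were chosen with earlier results of these data known. Members named in depth had a mean of at least 1 RPKM in some tissue or were among the 8 largest changes past both rules; of each pathway list, up to 4 genes past both rules were named per comparison. Other members and genes are named to account for them all.

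Alternatives were mouse number as a block, DESeq2 1.42.0, no scaling, no filter, summed rows, a single fit of the 18 samples, a lane covariate and limma 3.58.1 on log2(RPKM + 0.1). The comparisons within lanes and without single libraries were chosen after seeing the data. The titles give mouse numbers, taken here as the same mouse. Same-numbered samples correlated, over genes and after removing the tissue means, at -0.223 to 0.339 between iWAT and eWAT (6 mice), -0.134 to 0.0961 between iWAT and BAT (4 mice) and -0.0309 to 0.0628 between eWAT and BAT (4 mice), so they did not deviate together.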

Additional observations from a re-analysis of the deposited data

Results flagged for a closer look

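In 9 of 169 groups of 6 samples (a gene in a tissue), 1 sample lay apart from the other five by Dixon's test. Chance flags about 1 in 20 such groups, or 8.45 of these, and 4 of the 9 were among the members. Wnt10b was 0.0437 RPKM in eWAT mouse 4, on 4 reads, against 0 to 0.00703 in the others. Wnt2 was 0.102 RPKM in iWAT mouse 3, on 7 reads, against 0 to 0.0325. Wnt5b was 0.205 RPKM in BAT mouse 2 against 0.0924 to 0.131, and Fzd9 was 0.0289 RPKM in iWAT mouse 5, below the 0.0639 to 0.0842 of the others, on 2 reads.

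Among the other pathway genes, Porcn (1.69 RPKM against 1.19 to 1.35) and Prickle1 (3.08 against 1.65 to 2.102) were highest in BAT mouse 2, the library that was also highest for 12 members. Vangl1 was 1.63 RPKM in BAT mouse 18 against 1.12 to 1.23. Ror1 was 0.634 RPKM in eWAT mouse 4 against 0.267 to 0.397, in the library with the highest value for 11 of 20 members. Wisp1 was 0.234 RPKM in iWAT mouse 5 against 0.0407 to 0.0796.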

How the results depend on the processing

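Over the log2 fold changes of single members, 528 values under alternatives kept their direction and their side of the threshold, 40 lost the call, 10 gained it and 29 changed sign; the causes were not tested. Scaling mattered most against BAT. Without it, 14 members were higher in iWAT and 2 higher in BAT, and 2 were higher in BAT than in eWAT. Signs then turned for Wnt11 (0.29), Fzd6 (0.035), Fzd7 (0.82) and Fzd8 (0.60) between iWAT and BAT, for Dkk3 (0.71), Sfrp2 (0.77), Sfrp4 (0.20), Wnt5a (0.24), Fzd3 (0.55) and Fzd4 (0.21) between eWAT and BAT, and for Fzd1 (-0.052) between the white depots. With limma on log2(RPKM + 0.1), which is likewise not rescaled, 2 members were higher in BAT than in iWAT, 8 were called between eWAT and BAT and 2 of those were higher in BAT, and signs turned for Wnt11 (0.059), Fzd7 (0.59) and Fzd8 (0.30), and for Dkk3 (0.26), Sfrp2 (0.32) and Fzd3 (0.12). With the second rule the calls were 8 (5 higher in iWAT, 3 in BAT) and 7 (3 higher in eWAT, 4 in BAT). Within the first lane 6 members were called between the white depots, 3 in each direction, and within the second 11 were called, 9 higher in iWAT and 2 higher in eWAT. Fewer samples enter these fits. Shares of all genes called without scaling, with limma or within a lane are not given here. The counts under these settings therefore cannot show whether the members differ from other genes. The remaining sign changes were of members not called: Sfrp4 (0.10 within the second lane), Wnt5b between the white depots (-0.35 within the first lane, -0.19 without eWAT mice 1 and 3), Dkk3 (-0.028 without iWAT mice 1 and 5 against BAT, 0.094 without eWAT mice 1 and 3), Fzd7 over BAT (0.068 with no filter, 0.0028 without iWAT mice 1 and 5, 0.078 without BAT mouse 2) and Wnt5b in eWAT over BAT (-0.0062 without eWAT mouse 16). With mouse number as a replicate block the signs of Sfrp1 (-0.015) and Wnt5b (-0.057) in iWAT over BAT and of Wnt5b in eWAT over BAT (-0.073) turned, and the block changed no call of a member beyond those given above. A cutoff of 0.1 RPKM in place of 1 left 19, 21 and 18 members expressed in iWAT, eWAT and BAT, and a cutoff of 0.5 RPKM left 11 in eWAT. Depth limits the scarce members: 11 were at the floor in each library and 19 to 21 per comparison had too few reads to be tested.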
